A study of Mus musculus with 10 samples.

Results

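The immediate early response genes described here are Fos, Fosb, Jun, Junb, Egr1, Ier2, Nr4a1, Atf3, Dusp1 and Zfp36. They were chosen by name, as transcripts known to mark dissociation stress or cell activity, with earlier results of these data known. Each was read through the probe sets annotated to its symbol alone. These were 11 probe sets, since Jun had 2 and every other member 1. All 10 members passed the filter on low signals and were among the 9310 genes tested, of 12393 genes on the array.

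Total RNA of 5 cell populations from mouse paw pads was measured on 10 Affymetrix arrays, 2 per population. The populations were duct basal and duct suprabasal cells of the straight sweat duct, myoepithelial and luminal cells of the coiled sweat gland, and palmoplantar epidermis, the thick epidermis of the sole. All were sorted by flow cytometry from wild-type CD1 females, with no treatment named in the labels. The labels name both arrays of each population as biological replicates without giving the animals behind them, so a p-value here reflects only how far such arrays lie apart. They also give no sorting markers and no time, enzyme or temperature of dissociation, so the handling of a population and the population itself cannot be told apart here.

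Immediate early genes are transcribed within minutes of a stimulus from factors already present in the cell, without new protein synthesis. Growth factors, stretch, cytokines and the enzymatic release of cells from tissue all act through ERK, p38 and JNK kinases on the factors Srf, Elk1 and Creb1 bound at their promoters. The first products include the AP-1 factors of the Fos and Jun families, the zinc finger factor Egr1 and the orphan nuclear receptor Nr4a1, together with the feedback regulators Dusp1 and Zfp36, which end the response. Their transcripts are short-lived, so a level is a snapshot of the recent past of the cells.

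The promoters are shown first, to describe the elements found close to the start of the members. RefSeq promoters of GRCm38.p6 were matched for 8 of the 10 members, Egr1 and Ier2 being the others, and the 250 bases before each start were searched on both strands. The core of the cyclic AMP response element (TGACG, which Creb and Atf proteins bind) was found in 6 of the 8, in Fos, Fosb, Junb, Nr4a1, Atf3 and Dusp1, and in 17.8% of 32851 promoters. The full element (TGACGTCA, which overlaps core sites on both strands) was found in Dusp1, and in 1.55% of all promoters. The CArG box bound by Srf was found in Zfp36 and in 1.47% of all. A GC box (GGGCGG) was found in 7 members against 32.7% of all, an Ets site (CCGGAA) in 2 against 12%, and a TATA element (TATAAA) in Fos against 12.4%. An exact AP-1 site (TGANTCA) was found in 0 of the 8 and in 6.75% of all, and the canonical NF-kB site in 0 of the 8 and in 0.14% of all. Variant AP-1 sites such as TGACATCA, which the window of Jun holds, were not searched. A match describes the letters in this window and is no evidence of binding. Sequence outside the window was not searched, so an element not found here may lie elsewhere. The promoters of Fos, Nr4a1, Dusp1 and Zfp36, the 4 of these 8 members with the widest gaps between epidermis and the sweat populations, follow 5′ to 3′ with TGACG core sites and the CArG box in capitals. They lie at chr12:85473640-85473889 (plus strand), chr15:101266596-101266845 (plus), chr17:26508473-26508722 (minus) and chr7:28379229-28379478 (minus).
Fos: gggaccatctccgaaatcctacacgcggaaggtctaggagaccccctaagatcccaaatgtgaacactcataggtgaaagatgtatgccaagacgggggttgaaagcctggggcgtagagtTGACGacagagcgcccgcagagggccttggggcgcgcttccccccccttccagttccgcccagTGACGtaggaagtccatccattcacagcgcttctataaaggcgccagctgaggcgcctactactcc
Nr4a1: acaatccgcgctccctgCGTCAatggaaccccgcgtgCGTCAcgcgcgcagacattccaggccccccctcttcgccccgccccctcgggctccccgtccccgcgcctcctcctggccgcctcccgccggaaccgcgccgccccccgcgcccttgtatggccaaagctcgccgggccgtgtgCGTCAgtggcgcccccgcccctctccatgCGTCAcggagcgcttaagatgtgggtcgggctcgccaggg
Dusp1: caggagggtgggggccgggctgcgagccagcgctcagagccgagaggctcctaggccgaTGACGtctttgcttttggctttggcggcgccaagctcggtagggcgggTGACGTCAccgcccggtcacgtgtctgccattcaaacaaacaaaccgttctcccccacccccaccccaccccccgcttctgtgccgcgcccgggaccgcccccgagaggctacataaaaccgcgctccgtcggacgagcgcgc
Zfp36: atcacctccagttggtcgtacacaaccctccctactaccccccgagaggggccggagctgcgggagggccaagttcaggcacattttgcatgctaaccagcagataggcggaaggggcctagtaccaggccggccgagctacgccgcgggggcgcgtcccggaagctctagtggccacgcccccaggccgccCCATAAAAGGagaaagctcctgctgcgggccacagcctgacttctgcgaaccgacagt
Nr4a1 holds 4 core sites in this window, Fos 2, and Dusp1 3, of which 2 make up its full element. Zfp36 holds the CArG box and no core site.

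Some arrays stood apart from the other array of their population in markers of other cells. Luminal markers summed to 17633 on myoepithelial array 1 and 7853 on array 2, and fibroblast markers to 16784 on duct suprabasal array 1 and 88296 on array 2. Suprabasal epidermal markers summed to 6751 on duct basal array 1 and 18841.5 on array 2, with the keratin Krt10 at 2499 and 10255. The counts below of members above epidermis are given with and without myoepithelial array 1 and duct suprabasal array 2.

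Every member was lowest in palmoplantar epidermis. Both epidermis arrays lay below all 8 sweat gland and duct arrays for 10 of 10 members, as they did for 24.9% of all genes tested, and by rank within each array for 10 of 10 members against 16% of all genes. The F test over the 5 populations in limma, with Benjamini-Hochberg adjustment over all genes tested, was past the threshold of 0.05 for 10 of 10 members, where 65.8% of all genes were. Against epidermis, 9 of 10 members were higher in duct basal cells (23% of all genes), 7 in duct suprabasal cells (29.4%), 8 in myoepithelial cells (31.7%) and 10 in luminal cells (26.1%). No member was lower in any of the 4, where 11%, 16.7%, 19.9% and 19.2% of genes were. In either direction, 34%, 46%, 51.6% and 45.3% of genes were past the threshold in duct basal, duct suprabasal, myoepithelial and luminal cells. Fos, Egr1, Nr4a1, Atf3, Dusp1 and Zfp36 were higher in all 4 populations, as 11.8% of genes were. Without myoepithelial array 1 and duct suprabasal array 2 the counts were 9, 6, 6 and 10. These 4 comparisons share the epidermis arrays and are given side by side, not as repeats of each other. In bulk RNA, fewer expressing cells and less RNA per cell cannot be told apart.

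The median log2 difference of the members from epidermis was 3.89 in duct basal cells, 2.72 in duct suprabasal cells, 2.60 in myoepithelial cells and 3.84 in luminal cells. That of all genes was 0.24, 0.25, 0.28 and 0.16. Quantile normalization moved these medians of all genes by -0.23, -0.36, -0.31 and -0.19, and the share of called genes that were higher than in epidermis from 67.7% to 56.8%, from 63.8% to 47.6%, from 61.4% to 48.3% and from 57.6% to 49.4%. Under it 9, 6, 8 and 10 members were higher, and no called difference of a member changed sign.

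**Figure D1:**
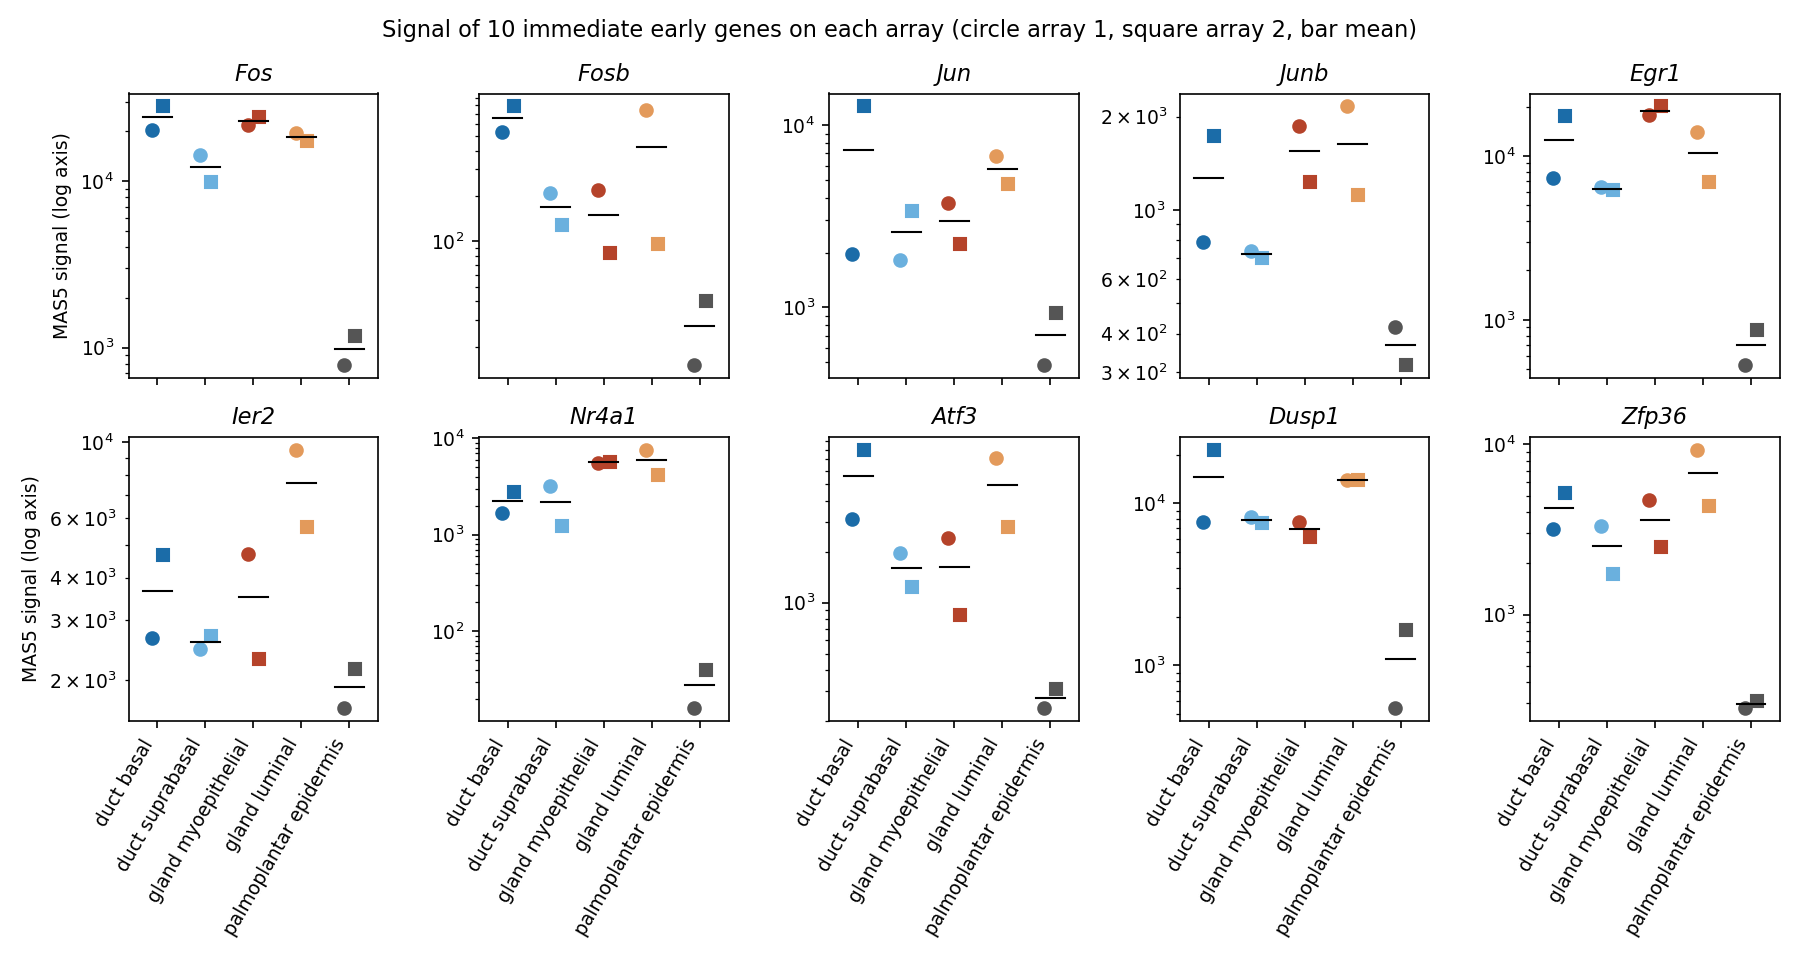
MAS5 signal (log axis, a separate scale in each panel) of the 10 members on each array; circles are array 1, squares array 2 and bars the mean of the population. In each panel both epidermis points lie below the 8 others, with a gap that is wide for Nr4a1 and Fos and narrow for Ier2.

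Fos, the partner that makes AP-1 dimers with Jun proteins, had a signal of 785 and 1178 on the epidermis arrays. It was 20208 and 28158 in duct basal cells, 14472 and 9862 in duct suprabasal cells, 21795 and 24161 in myoepithelial cells and 19409 and 17509 in luminal cells. The lowest sweat array, duct suprabasal array 2, was 8.37-fold above the highest epidermis array, and the 8 sweat arrays spanned 2.86-fold, the narrowest span among the members. On the scale of log2(signal + 12), which all differences below use, Fos was above epidermis by 4.61 in duct basal, 3.62 in duct suprabasal, 4.56 in myoepithelial and 4.24 in luminal cells (SE 0.27 each, limma adjusted p 2.6e-05, 2.6e-05, 3.1e-06 and 6.0e-06). These calls held under all 20 alternatives tried. In the order of levels, duct basal, myoepithelial, luminal and duct suprabasal cells, no neighbours were past the threshold until epidermis.

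Fosb, a second Fos family protein that is made later and lasts longer in a response, had signals of 15.1 and 40 in epidermis. It read 532 and 786 in duct basal cells, 209 and 129 in duct suprabasal cells, 218 and 83.5 in myoepithelial cells and 749 and 95.4 in luminal cells. The duct basal arrays were both high, while the luminal arrays lay far apart, one among the brightest and the other among the dimmest of the 8. Fosb was above epidermis by 4.13 in duct basal cells (SE 0.81, limma adjusted p 0.0046), 2.23 in duct suprabasal cells (0.049) and 2.93 in luminal cells (0.016), and its difference of 1.98 in myoepithelial cells was not past the threshold (0.067). That difference passed in 4 of 20 alternatives: with a pseudocount of 1 (0.049), without either luminal array (0.0137 and 0.0128) and with just the 4 compared arrays fitted (0.0138). Only the duct basal call held under all 20 alternatives, and with a pseudocount of 47 its difference was 3.24. The luminal call was lost without luminal array 1 (1.52, adjusted p 0.103) or epidermis array 1 (2.46, 0.106), was 4.34 without luminal array 2 and 2.20 with the pseudocount of 47. The duct suprabasal call passed in 6 of 20 alternatives. Among others, it was lost without either array of duct basal, duct suprabasal or myoepithelial cells or epidermis (adjusted p 0.0517 to 0.229), with the pseudocount of 47 (1.53, 0.0981) and under quantile normalization (1.65, 0.123). The F test was lost without duct basal array 2 (adjusted p 0.0586) or epidermis array 1 (0.0914).

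Jun, the founding Jun protein and a target of JNK, read 482 and 930 in epidermis through its brighter probe set. It was 1953 and 12682 in duct basal cells, 1810.3 and 3396 in duct suprabasal cells, 3744 and 2223 in myoepithelial cells and 6792 and 4764 in luminal cells. Duct basal array 2 stood above all others and array 1 among the lowest of the 8. The second Jun probe set, 286 and 566 in epidermis and between 1298 and 4367 elsewhere, also had both epidermis arrays below the 8 others and duct basal array 2 on top. Jun was above epidermis by 2.87 in duct basal (SE 0.74, limma adjusted p 0.016), 2.09 in myoepithelial (0.040) and 3.06 in luminal cells (0.0082), and its difference of 1.87 in duct suprabasal cells was not past the threshold (0.066). That difference passed in 5 of 20 alternatives: with the replicate block (0.0462), with the mean of both probe sets (0.0371), with just the 4 compared arrays fitted (0.0236) and without either duct basal array (0.00935 and 0.00944). The duct basal difference was 1.53 without duct basal array 2 (adjusted p 0.0648), 4.22 without array 1 and 2.41 without epidermis array 1 (0.115). The luminal call was lost without luminal array 1 (0.055) or epidermis array 1 (0.0688). The myoepithelial call was lost without either array of myoepithelial cells (0.18 and 0.0653), luminal cells (0.0558 and 0.0555) or epidermis (0.209 and 0.0657). With myoepithelial array 1 and duct suprabasal array 2 both left out it was 1.71 (0.14). The F test was lost without either luminal array (0.0694 and 0.0546) or epidermis array (0.19 and 0.0753). With a prior variance that does not follow the mean signal, the F test (0.0519) and the myoepithelial call (0.0606) were lost too.

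Junb, a Jun protein that can oppose Jun, read 419 and 317 in epidermis, 791 and 1736 in duct basal, 740 and 699 in duct suprabasal, 1867 and 1229.6 in myoepithelial and 2156 and 1114 in luminal cells. Its sweat arrays spanned 3.08-fold, and duct suprabasal array 2 was 1.67-fold above the higher epidermis array. Junb was above epidermis by 1.66 in duct basal (SE 0.41, limma adjusted p 0.014), 2.02 in myoepithelial (0.0030) and 2.05 in luminal cells (0.0030), and by 0.96 in duct suprabasal cells, which was not past the threshold (0.085) but passed without duct basal array 1 (0.0498) and with just the 4 compared arrays fitted (0.0358). The duct basal call was lost without duct basal array 2 (1.09, adjusted p 0.0875) or epidermis array 2 (1.46, 0.0946), and the F test without epidermis array 2 (0.0599).

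**Figure D2:**
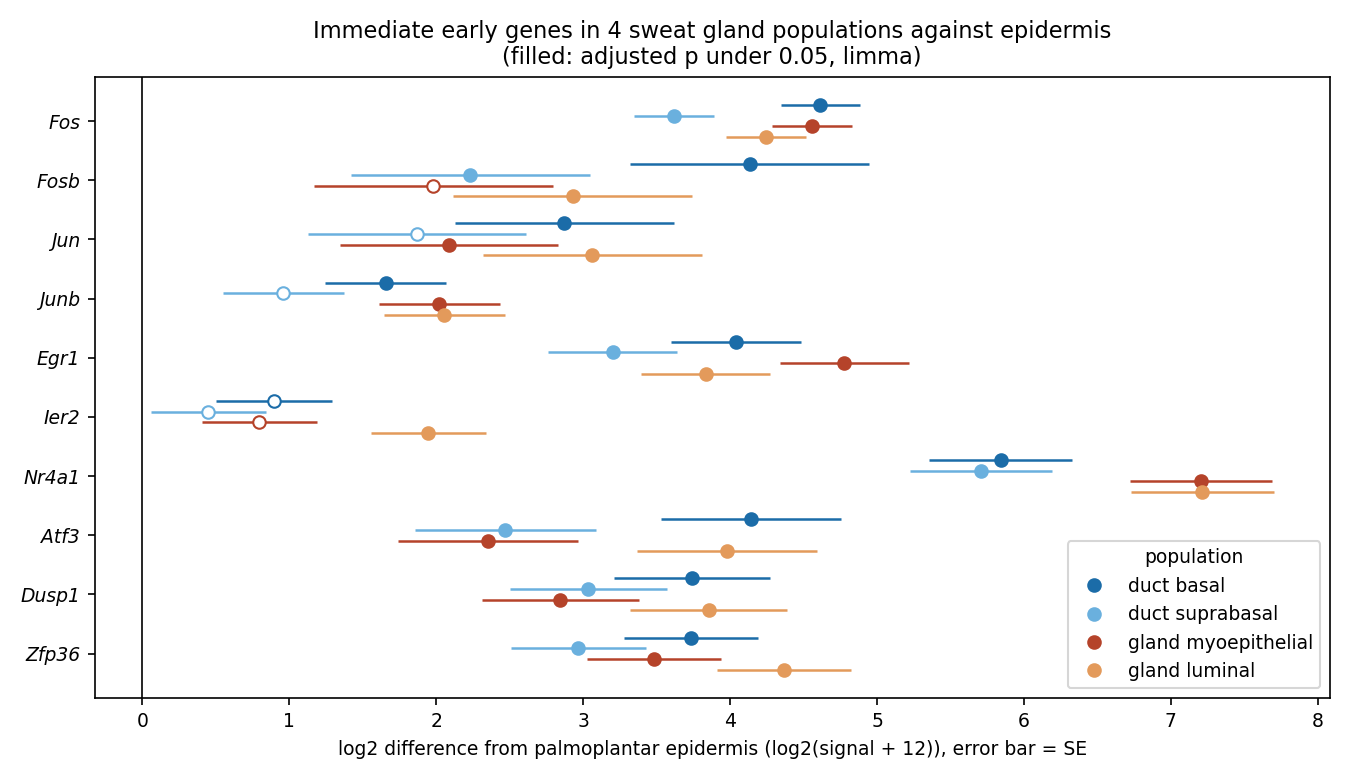
Log2 difference of each member from palmoplantar epidermis in the 4 sweat gland and duct populations, on the scale of log2(signal + 12), with bars of 1 SE; filled points are past an adjusted p of 0.05 in limma. Fos, Egr1, Nr4a1, Atf3, Dusp1 and Zfp36 are filled in all 4 populations, and Ier2 in luminal cells only.

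Egr1, a zinc finger factor switched on through Srf and Elk proteins, read 529 and 865 in epidermis. It was 7289.7 and 17595 in duct basal, 6443 and 6196 in duct suprabasal, 17767 and 20048 in myoepithelial and 13958 and 6888 in luminal cells. The myoepithelial arrays were both high and the duct suprabasal arrays both low among the 8, which did not overlap with epidermis. Its differences from epidermis were 4.04 in duct basal, 3.20 in duct suprabasal, 4.78 in myoepithelial and 3.83 in luminal cells (SE 0.44, limma adjusted p 2.3e-04, 5.0e-04, 3.4e-05 and 1.4e-04). They held under all 20 alternatives; the duct basal value was 4.68 without duct basal array 1 and 3.41 without array 2.

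Nr4a1, an orphan nuclear receptor induced by growth factors and calcium signals, had the widest gap of the 10 members. It read 15.9 and 40 in epidermis, signals in the lower part of those arrays (percentiles 24.9 and 37.5), where no detection calls were used. In duct basal cells it was 1685 and 2794, in duct suprabasal cells 3162 and 1234.5, in myoepithelial cells 5568 and 5656 and in luminal cells 7609.5 and 4186. Each gland array was above each duct array, and the lowest sweat array was 30.9-fold above the higher epidermis array. Nr4a1 was above epidermis by 5.84 in duct basal, 5.71 in duct suprabasal, 7.21 in myoepithelial and 7.21 in luminal cells (SE 0.48, limma adjusted p 6.6e-05, 4.7e-05, 5.6e-06 and 7.5e-06), and these calls held under all 20 alternatives. The sizes depend on the pseudocount, since the epidermis signals are low. With a pseudocount of 47 they were 4.91, 4.78, 6.26 and 6.27, and the duct suprabasal value was 5.03 without its array 1 and 6.38 without its array 2.

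Atf3, a stress-induced factor of the Atf and Creb family that represses many targets, read 237.5 and 309 in epidermis, 3114 and 7993 in duct basal cells, 1974 and 1227 in duct suprabasal cells, 2414 and 846 in myoepithelial cells and 7111 and 2787.5 in luminal cells. The duct basal and luminal arrays lay above the duct suprabasal and myoepithelial arrays without overlap. Atf3 was above epidermis by 4.14 in duct basal, 2.47 in duct suprabasal, 2.35 in myoepithelial and 3.98 in luminal cells (SE 0.61, limma adjusted p 0.0011, 0.0098, 0.0105 and 6.8e-04). The myoepithelial call was lost without myoepithelial array 1 (1.60, adjusted p 0.0833) or epidermis array 1 (0.0664), and was 3.10 without myoepithelial array 2. The duct suprabasal call was lost without epidermis array 1 (0.0646). Without array 1 or 2 of its own population the difference was 4.82 or 3.47 in duct basal and 3.31 or 4.65 in luminal cells.

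Ier2, a small nuclear protein of the same early response, was the member closest to its epidermis level. It read 1654 and 2161 in epidermis, 2657 and 4675 in duct basal, 2474 and 2702.5 in duct suprabasal, 4694 and 2307 in myoepithelial and 9517 and 5634 in luminal cells. Myoepithelial array 2 was 1.07-fold above the higher epidermis array, so the groups touched without overlapping, and both luminal arrays were above all others. The difference from epidermis was 1.95 in luminal cells (SE 0.39, limma adjusted p 0.0031), a call that held under all 20 alternatives. It was 0.89 in duct basal (0.11), 0.45 in duct suprabasal (0.38) and 0.80 in myoepithelial cells (0.12), none past the threshold. The duct basal difference passed with just the 4 compared arrays fitted (0.0293), and the myoepithelial one without myoepithelial array 2 (1.31, 0.032). The F test was lost without luminal array 1 (0.0961) or epidermis array 1 (0.0631).

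The feedback regulators were higher in all 4 populations. Dusp1, a phosphatase that switches off p38 and JNK, read 544 and 1660.2 in epidermis, 7710.5 and 21452 in duct basal, 8183 and 7611 in duct suprabasal, 7692 and 6224 in myoepithelial and 13868 and 13991 in luminal cells. The epidermis arrays lay far apart, array 1 minus array 2 being -1.59 on the log2 scale, and stayed below all 8. Its differences from epidermis were 3.74, 3.03, 2.85 and 3.85 in the same order of populations (SE 0.53, limma adjusted p 9.0e-04, 0.0018, 0.0019 and 3.8e-04) and held under all 20 alternatives. Without epidermis array 1 they were 2.95, 2.24, 2.05 and 3.06, and without epidermis array 2 they were 4.53, 3.83, 3.64 and 4.65; the duct basal value was 4.48 without duct basal array 1 and 3.0 without array 2.

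Zfp36, which binds AU-rich elements and sends early response and cytokine transcripts to decay, read 281 and 311 in epidermis, close together. It was 3196.5 and 5203 in duct basal, 3331 and 1719 in duct suprabasal, 4682.5 and 2503 in myoepithelial and 9303 and 4318 in luminal cells. The lowest of these, duct suprabasal array 2, was 5.53-fold above the higher epidermis array. Its differences from epidermis were 3.73, 2.97, 3.48 and 4.37 in the same order (SE 0.46, limma adjusted p 4.0e-04, 9.0e-04, 2.5e-04 and 7.8e-05) and held under all 20 alternatives.

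Among the 4 sweat gland and duct populations, 4 differences of members were past the threshold. Fos was higher in duct basal than in duct suprabasal cells by 1.0 (SE 0.27, limma adjusted p 0.037), 1 of 10 members where 7.98% of genes were higher, and higher in myoepithelial than in duct suprabasal cells by 0.94 (0.042). Egr1 was also higher in myoepithelial than in duct suprabasal cells, by 1.58 (SE 0.44, adjusted p 0.038), which made 2 of 10 members where 8.15% of genes were higher. Ier2 was higher in luminal than in duct suprabasal cells by 1.5 (SE 0.39, adjusted p 0.034), 1 of 10 members where 4.95% of genes were. All 4 have duct suprabasal cells on the lower side. With 10 members, counts of 1 and 2 are close to these shares. No member passed the threshold as higher in duct suprabasal than in duct basal, myoepithelial or luminal cells, as 8.39%, 9.26% and 10.2% of genes were, and in either direction 16.4%, 17.4% and 15.2% of genes were past the threshold. With the replicate block Zfp36 was also past it in luminal against duct suprabasal cells (1.40, adjusted p 0.0434).

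Each of these 4 calls was lost when 1 of several arrays was left out, and with a prior variance that does not follow the mean signal (adjusted p 0.0585 to 0.071). Fos in the duct layers was lost without duct basal array 1 (adjusted p 0.0546) or 2 (0.213), duct suprabasal array 2 (0.116), either luminal array (0.0564 and 0.0563) or epidermis array 1 (0.0502), and under quantile normalization, which moved the median of all genes in that comparison by 0.11, it was 0.64 (0.241). Fos in myoepithelial against duct suprabasal cells was lost without duct suprabasal array 2 (0.15), either myoepithelial array (0.0925 and 0.194), either luminal array (0.0627 and 0.0623) or either epidermis array (0.0527 and 0.0521). Egr1 there was lost without either array of duct suprabasal (0.077 and 0.0731), myoepithelial (0.0957 and 0.18) or epidermis cells (0.0552 and 0.0549). Under quantile normalization Fos (0.102) and Egr1 (0.0583) in that comparison were lost too, and without the filter on low signals Fos was (0.0566). With just the 4 compared arrays fitted, the call of Fos in the duct layers (0.139), that of Fos in myoepithelial against duct suprabasal cells (0.169) and that of Ier2 (0.0944) were lost. Ier2 was lost without either array of duct suprabasal (0.0633 and 0.0728), luminal (0.204 and 0.0572) or epidermis cells (0.0589 and 0.0588).

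Between myoepithelial and luminal cells limma called 0 of 10 members, where 31.1% of genes were past the threshold in either direction. Ier2 came closest, at -1.15 (SE 0.39, adjusted p 0.052), followed by Atf3 at -1.63 (SE 0.61, 0.073), both lower in myoepithelial cells without overlap of arrays. Between myoepithelial and duct basal cells 0 of 10 were past the threshold against 24.3% of genes; Atf3 was -1.79 (adjusted p 0.062), Nr4a1 1.37 (0.071) and Fosb -2.15 (0.087). Between luminal and duct basal cells 0 of 10 were past it against 35.4% of genes, with Nr4a1 at 1.37 (0.053) and Ier2 at 1.05 (0.064). At an unadjusted p under 0.05 in limma the counts were 2, 3 and 2 of 10. The share of all genes at that level was not counted. It cannot be below the 31.1%, 24.3% and 35.4% that passed after adjustment. With myoepithelial array 1 and duct suprabasal array 2 both left out, myoepithelial minus luminal was -1.66 for Ier2, -2.38 for Atf3 and -1.34 for Zfp36. In that setting Atf3 was -2.54 in myoepithelial against duct basal cells. The misses in the fit of all arrays do not show that the levels were equal.

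Of the outer layers against the inner ones, the 10 members had positive estimates in the duct (basal minus suprabasal, from 0.13 for Nr4a1 to 1.90 for Fosb). In the gland they were mostly negative (myoepithelial minus luminal, from -1.63 for Atf3 to 0.94 for Egr1). There Nr4a1 (-0.008, SE 0.48) and Junb (-0.03, SE 0.41) lay near 0. The median of all genes was -0.02 in the duct and 0.08 in the gland, and the share of genes with each sign was not counted. Members moved together between arrays, 0 of 10 being higher on duct basal array 1, so their signs are not separate observations. Over 20 alternatives the lowest duct estimates of Jun, Dusp1 and Nr4a1 were -0.34, -0.03 and -0.54, and the other members stayed above 0. The highest gland estimates of Fosb, Nr4a1 and Junb were 0.46, 0.42 and 0.44. Atf3 was the member whose layer difference itself differed between gland and duct, 1.67 in the duct and -1.63 in the gland, a difference of -3.30 (SE 0.87, limma adjusted p 0.032), 1 of 10 members where 16% of genes passed. That comparison was chosen after the values were seen. It passed in 12 of 19 alternatives, with values from -4.05 to -2.55, and was lost with a prior variance that does not follow the mean signal (adjusted p 0.0541) and without duct basal array 2 (adjusted p 0.117), duct suprabasal array 2 (0.0589), luminal array 1 (0.106), myoepithelial array 2 (0.101) or either epidermis array (0.058 and 0.0578).

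**Figure D3:**
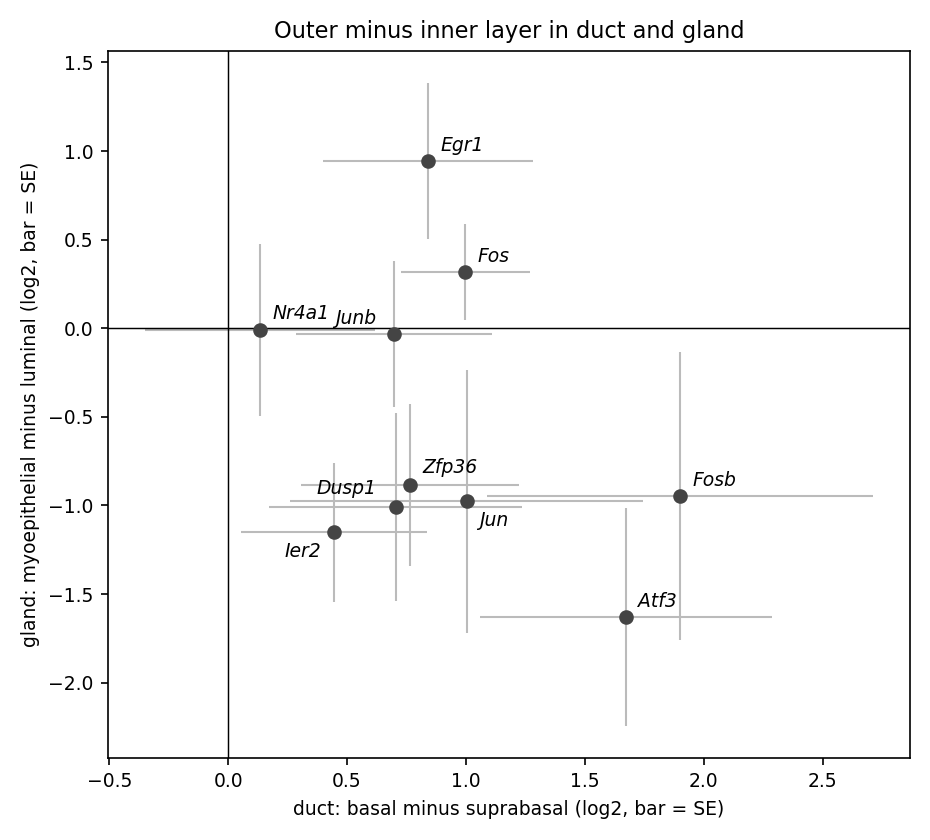
Log2 difference between outer and inner layer in the duct (x axis, basal minus suprabasal) and in the gland (y axis, myoepithelial minus luminal) for each member, with bars of 1 SE. All 10 members lie right of 0 on the x axis. On the y axis 8 lie below 0, of which Nr4a1 and Junb lie near it, and Fos and Egr1 lie above. Of these layer differences 1, Fos in the duct, is past the threshold.

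Arrays of a population differed in most members at once. Array 1 was higher for 0 of 10 members in duct basal cells, 8 in duct suprabasal, 7 in myoepithelial, 9 in luminal cells and 1 in epidermis. The part of the difference in suprabasal epidermal markers between the duct basal arrays was not tested. The median log2 difference of the members, array 1 minus array 2, was -0.97, 0.33, 0.67, 0.90 and -0.64 in that order, and that of all genes tested lay between 0.02 and 0.08. In duct basal cells 5 of 10 members were over 2-fold apart, where 8.88% of all genes were, in luminal cells 4 against 6.48%, in myoepithelial cells 3 against 7.93%, in duct suprabasal cells 1 against 20.1% and in epidermis 1 against 5.42%. Averaged over the members, each centred on its own mean, luminal array 1 and duct basal array 2 were highest (1.59 and 1.49) and the epidermis arrays lowest (-2.94 and -2.33), with duct suprabasal array 2 the lowest of the rest (-0.15). On this average the arrays of a population differed by up to 1.12, against 2.17 between the lowest sweat array and the higher epidermis array.

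**Figure D4:**
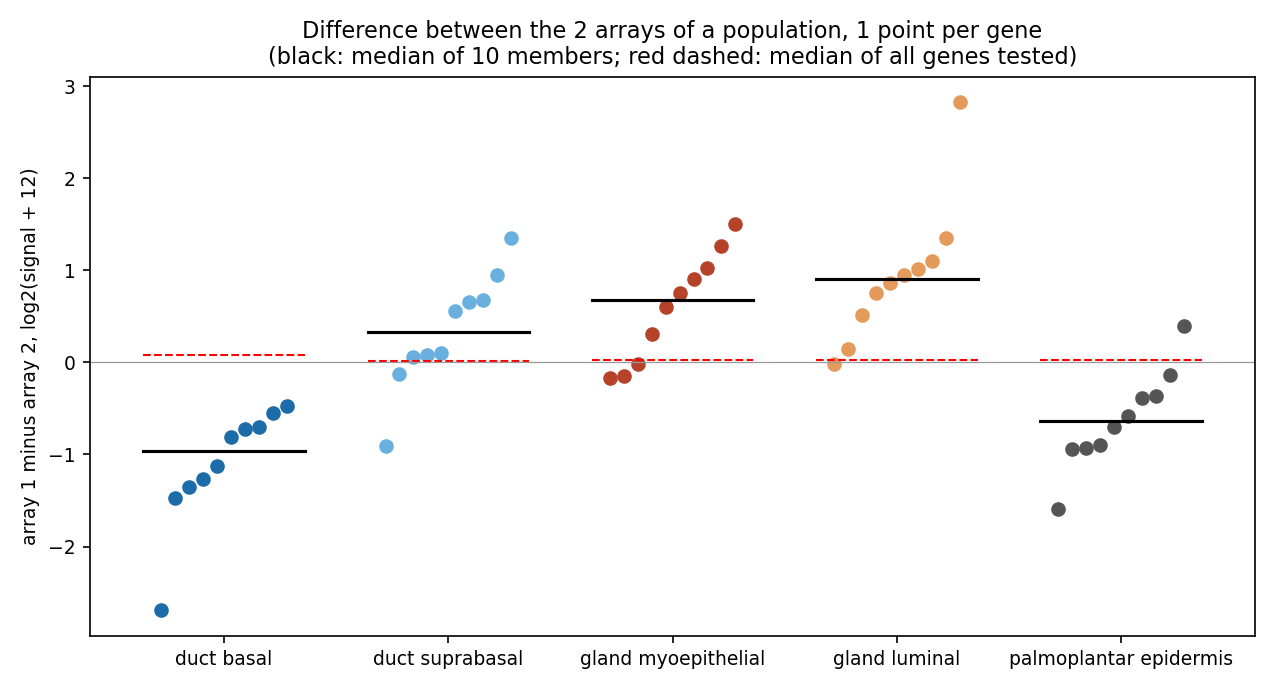
Array 1 minus array 2 of each population on the scale of log2(signal + 12), 1 point per member; black bars are the median of the 10 members and red dashed lines that of all genes tested. The 10 duct basal points lie below 0 and 9 of the 10 luminal points above it, while the red lines stay near 0.

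Across the 10 arrays the correlation between members lay between 0.60 and 0.97 over 45 pairs, with a median of 0.84. Without the epidermis arrays it lay between 0.002 (Fosb with Nr4a1) and 0.90 (Jun with Dusp1), with a median of 0.57, and 0 of 45 were below 0. These are descriptions over 10 and 8 arrays that share populations. The 8 genes whose log2 signal was most like the mean of the members over the 10 arrays were Vps37b (r 0.991), Tmem216 (0.987), Gga2 (0.975), Btg2 (0.970), Eya2 (0.970), Ppp1r15a (0.956), Gpc4 (0.950) and Casp6 (0.948), where the median r of 9300 genes was 0.18. Over the 8 sweat arrays alone the r of these genes was 0.94, 0.92, 0.83, 0.88, 0.77, 0.69, 0.61 and 0.50. Btg2, an antiproliferative early response gene, followed the members in detail: it read 300 and 260 in epidermis, 1699 and 2978 in duct basal, 1872 and 1001.9 in duct suprabasal, 3574 and 1710.6 in myoepithelial and 3873 and 1637 in luminal cells. Vps37b, a subunit of the endosomal sorting complex, moved over a small range, from 73 and 78.4 in epidermis to 170 on duct basal array 2.

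Other early response, stress and feedback genes were compared through 8 lists of 111 genes, 100 of them on the array. Beside the counts of each list below stand the shares of all genes against epidermis. These were 23%, 29.4%, 31.7% and 26.1% higher in duct basal, duct suprabasal, myoepithelial and luminal cells, and 11%, 16.7%, 19.9% and 19.2% lower. Over the 4 populations the mean difference from epidermis had a median of 3.30 over the members, 0.25 over all genes tested (quartiles -0.42 and 1.03), 1.62 over the phosphatases and Sprouty proteins that restrain ERK and p38, 1.26 over NF-kB and cytokine response genes, 1.26 over the other Egr, Nr4a, Klf, Ier and Btg genes, and 1.22 over the decay partners of Zfp36. It was 0.65 over the other AP-1 and Maf proteins, 0.47 over Srf, Elk, Creb and upstream factors, 0.39 over DNA damage and integrated stress response genes and -0.03 over heat shock genes. Quantile normalization turned the median of the Srf, Elk and Creb list below 0 in duct basal (-0.05) and duct suprabasal cells (-0.32), and that of the heat shock list in myoepithelial cells (-0.04).

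**Figure D5:**
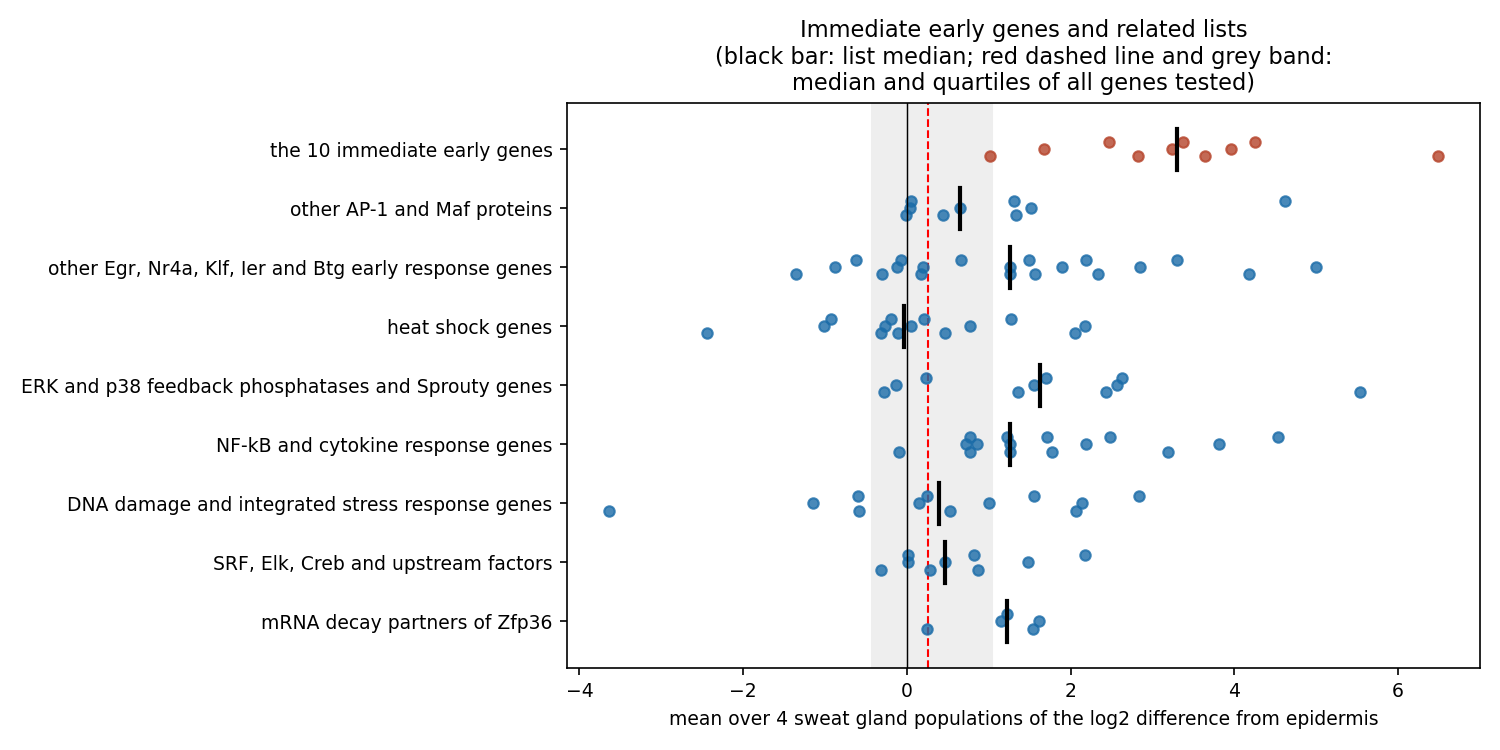
Mean over the 4 sweat gland and duct populations of the log2 difference from epidermis, 1 point per gene, for the members and 8 related lists; black bars are list medians, the red dashed line and grey band the median and quartiles of all genes tested. The members have a median of 3.30 and the heat shock genes -0.03, near the line for all genes.

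Of the 9 tested among the other AP-1 and Maf proteins, 3, 4, 4 and 3 were higher than in epidermis in duct basal, duct suprabasal, myoepithelial and luminal cells, and 0 lower; under quantile normalization 1, 3, 4 and 3 were higher. Jdp2, a repressor that dimerises with Jun, led them: 3.3 and 27.6 in epidermis, 465 and 482 in duct basal, 267 and 404 in duct suprabasal, 1515.5 and 1691 in myoepithelial and 433 and 547 in luminal cells, above epidermis by 3.79 to 6.03 (limma adjusted p at most 1.4e-04). Its size depends on the pseudocount and the probe sets, and was 1.71 to 2.68 with the mean of all its probe sets. Atf2, a partner of Jun, was higher by 1.12 to 2.03, and Mafk, a small Maf protein, in duct suprabasal (0.85) and myoepithelial cells (1.27). Under quantile normalization the calls of Atf2 in duct basal cells (0.84, adjusted p 0.0803) and of Mafk in duct suprabasal cells (0.39, 0.237) were lost, and both were also lost without single arrays, such as epidermis array 1 (0.0601 and 0.121) or array 2 (0.192 and 0.0705).

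Of 20 other early response genes, 10, 9, 8 and 7 were higher in the same order and 0, 0, 4 and 4 lower; under quantile normalization 6, 9, 7 and 5 were higher. Klf9, a glucocorticoid-induced Kruppel-like factor, was higher by 2.86 to 4.72. Klf4, a factor of the epidermal barrier, was lower than in epidermis by 1.28 on the log2 scale in myoepithelial cells and by 4.15 in luminal cells, and Myc, a growth regulator, was higher in duct basal cells (1.64) and lower in myoepithelial (-1.62) and luminal cells (-3.17). Klf4 and Myc did not share the direction of the members in the gland. The duct basal value of Myc was 2.33 without duct basal array 1 and 0.95 without array 2, and its call was lost without epidermis array 1 (0.0588) or 2 (0.064). Klf9 was higher by 1.86 to 3.16 with the mean of all its probe sets.

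Heat shock genes, of which 14 were tested, were higher for 5, 3, 4 and 3 genes and lower for 0, 2, 2 and 4. Of all genes, 23%, 29.4%, 31.7% and 26.1% were higher and 11%, 16.7%, 19.9% and 19.2% lower. Dnaja1, an Hsp70 cochaperone, was higher in all 4 populations by 1.89 to 2.20. Hspe1, the mitochondrial cochaperonin, was lower in duct suprabasal (-1.31), myoepithelial (-1.31) and luminal cells (-1.27). Hspb8, a small heat shock protein, was lower in the same populations, with -5.20 in luminal cells. With the mean of all its probe sets Hspb8 was -3.32 in luminal cells. Hspa1a was higher in all 4 (1.86 to 2.60), but it and Hspa1b are near-identical copies whose probe sets may not tell them apart, and without epidermis array 1 its calls in duct basal (0.0668), duct suprabasal (0.0662) and myoepithelial cells (0.0802) were lost, the last also without myoepithelial array 1 (0.0576). Its duct basal value was 3.13 without duct basal array 1 and 1.32 without array 2.

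Feedback inhibitors of kinase signalling, 10 tested, were higher in 6, 7, 7 and 5 and lower in 1, 0, 0 and 0 in that order; under quantile normalization 4, 4, 7 and 5 were higher and 1, 0, 2 and 0 lower. Dusp6, the phosphatase of ERK itself, was higher by 4.70 to 6.32, Spry2 by 1.88 to 3.38 and Spred2 by 1.42 to 3.27, in all 4 populations each. With the mean of all probe sets of a gene, Spred2 was not past the threshold in duct suprabasal (0.53, limma adjusted p 0.134) and luminal cells (0.38, 0.27). Spry2 was then higher by 1.11 to 2.08. NF-kB and cytokine response genes, 15 tested, were higher in 11, 9, 10 and 7 and lower in 0, against 9, 6, 10 and 7 higher and 0, 1, 0 and 0 lower under quantile normalization. Socs3, the cytokine feedback inhibitor, was higher by 2.88 to 6.49 and Cebpd by 1.66 to 3.88 in all 4, and Icam1, the leukocyte adhesion receptor, in the 3 populations other than luminal cells (4.13 to 6.11; 0.67 in luminal cells, adjusted p 0.47). The size for Icam1 depends on its low epidermis signals: in myoepithelial cells it was 7.23 with a pseudocount of 1, 4.84 with one of 47, and 6.81 or 5.41 without epidermis array 1 or 2. In duct basal cells it was 5.42, 3.12, 5.03 and 3.62 in the same settings. In duct suprabasal cells Icam1 was 2.93 and Socs3 2.48 without array 2, and 5.33 and 4.13 without array 1. With the mean of all probe sets of a gene, Socs3 was higher by 2.08 to 5.52, and Cebpd by 2.76 in luminal cells.

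Of 12 DNA damage and stress response genes, 5, 5, 5 and 4 were higher and 2 lower in each population. Sgk1, a kinase induced by corticosteroids and osmotic stress, was higher by 2.25 to 3.71 and Ddit3, the stress factor Chop, by 1.10 to 1.97, its duct basal call being lost without duct basal array 2 (0.0537) or epidermis array 2 (0.0851). Cdkn1a, the cell cycle inhibitor of differentiating keratinocytes, ran the other way, with differences from -1.64 in duct suprabasal to -5.83 in luminal cells. Of 9 Srf, Elk, Creb and upstream genes 2, 2, 4 and 1 were higher and 0, 0, 0 and 1 lower. Srf and its coactivator Mrtfa were highest in myoepithelial cells (2.76 and 3.01). Elk3 was highest in duct suprabasal cells (3.82, with 2.87 without array 2 and 4.77 without array 1). With the mean of all probe sets of a gene, Srf was 2.15 in myoepithelial and Elk3 2.90 in duct suprabasal cells. Of 5 mRNA turnover genes listed with Zfp36, 3, 4, 5 and 2 were higher and 0 lower. Zfp36l1 and Zfp36l2, close relatives of Zfp36, were higher in the 3 populations other than luminal cells by 1.51 to 2.45. Zfp36l2 was not past the threshold in either duct layer with the mean of all its probe sets (adjusted p 0.0586 and 0.122). Cnot2, a subunit of the deadenylase complex, was higher by 0.81 to 1.49 through its brightest probe set, but with the mean of its probe sets it was between -0.35 and 0.21 and not past the threshold.

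Markers of other cell types and array quality were set beside these differences. Myoepithelial markers, among them Acta2 and Myh11, summed to 112213 and 165192 in myoepithelial cells and 3430.1 or less elsewhere, matching that label. Suprabasal epidermal markers matched the epidermis label, at 70325 and 70673 against 18841.5 or less. Luminal markers summed to 64881.6 and 78018.2 in luminal cells and 35170.6 or less elsewhere. Basal keratinocyte markers summed to 80062.5 and 82686 in duct basal cells and 25269.4 and 35091.7 in duct suprabasal cells. Suprabasal epidermal markers did not separate the duct layers, with 6750.6 and 18841.5 in duct basal and 8525.5 and 7001.5 in duct suprabasal cells. Summed fibroblast, endothelial, immune, pericyte, and melanocyte and Schwann cell markers were lowest in epidermis, as the members were. The 8 fibroblast markers summed to 1176 and 1478 in epidermis, 2308 and 6546 in luminal cells and 22076 to 27627 in duct basal cells. They summed to 32749 to 44356 in myoepithelial and 16784 to 88296 in duct suprabasal cells, and for 5 of 8 both epidermis arrays lay below all others. Most of the duct basal sum was Dcn (22039 and 18361), and most of the myoepithelial sum Postn (19850 and 28037) and Dcn (11955 and 15302.5). In myoepithelial cells Col1a1 read 45.4 and 39.2, Lum 35.2 and 49.5, Pdgfra 17.4 and 1.8, and Col3a1 587 and 687.5. On duct suprabasal array 2 these 4 read 1315, 8613, 2027 and 26876. In luminal cells 5 of the 8 were higher than in epidermis and 0 lower, with a median log2 difference of 2.85; Col3a1, a fibrillar collagen, read 895 and 2455 there against 25 and 19.1 in epidermis. The 8 endothelial markers summed to 77.4 and 111 in epidermis, 232 to 687 in luminal, myoepithelial and duct basal cells, and 3003.5 and 17267 in duct suprabasal cells; for 3 of the 7 tested both epidermis arrays lay below all others. The 5 pericyte markers summed to 61.7 and 75.1 in epidermis and 168 to 2225 elsewhere. The 3 melanocyte and Schwann cell markers summed to 74.9 and 43.3 in epidermis and 315 to 1717 elsewhere; for 3 of 3 both epidermis arrays lay below all others, and 3 of 3 were higher in all 4 populations. Of these Mbp, a myelin protein, read 45.5 and 19.6 in epidermis and 688 and 1095 in luminal cells. The 7 immune markers summed to 205 and 207 in epidermis, 229 to 738 in luminal and duct basal cells, 501 and 1388 in duct suprabasal and 4119.5 and 6039 in myoepithelial cells. The part of other cell types in the members' differences was not tested.

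The epidermis arrays also had the lowest median signal, 65.7 and 67.3 against 92.7 to 120.1. The arrays of a population correlated at 0.963 to 0.981 over all genes except in duct suprabasal cells (0.907). The ratio of 3′ to 5′ signal of Gapdh, a measure of RNA and labelling quality, was 0.85 and 0.96 in epidermis, 0.87 and 0.89 in luminal cells and 1.07 to 2.68 elsewhere. The same ratio for actin was higher on every array. For actin it was 3.30 and 2.51 in epidermis and 2.44 and 3.60 in luminal cells. It was 7.79 and 4.88 in duct basal, 4.87 and 5.47 in duct suprabasal and 3.49 and 6.52 in myoepithelial cells. The part of signal level and RNA quality in the members' differences was not tested.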

How the data were processed

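Total RNA was extracted with Trizol and labelled as biotin cRNA, per the labels' protocols. The authors deposited MAS5 signal intensity on a linear scale, scaled to a trimmed mean of 500, per the submitters' processing notes and the values; its version is not given in the sources used here, and calls of presence played no part. The array held 22690 probe sets, of which 20380 had 1 gene symbol, 691 several and 1555 none listed, and 64 were controls. The probe set with the highest mean signal stood for its gene. Genes above the 40th percentile on at least 2 arrays were tested, on log2(signal + 12). limma 3.58.1 in R 4.3.3 fitted 5 population means to the 10 arrays, with a prior variance that follows the mean signal and Benjamini-Hochberg adjustment over all 9310 genes; the script was tested on simulated data. All 10 pairs of populations were compared. The number of arrays limits the precision.

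The members and lists were chosen with earlier results of these data known. All members are named, with the 3 genes of the smallest F test p in each list (adjusted p under 0.05, population means at least 2-fold apart), the 8 genes most like the members, and other list genes where they describe a list. Alternatives changed the pseudocount, filter, probe set rule, normalization, variance prior, arrays fitted and replicate block. Deviations of same-numbered arrays correlated over 0.1 in 6 of 10 pairs of populations, all 6 among the 4 sweat populations (0.120 to 0.357), and less in the 4 pairs with epidermis (0.025 to 0.0878); the labels give no shared animal or day, and the fit has no replicate block. Promoters are RefSeq's on GRCm38.p6.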

Additional observations from a re-analysis of the deposited data

Results flagged for a closer look

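The layer difference of Atf3 was 1.67 in the duct (basal minus suprabasal, SE 0.61) and -1.63 in the gland (myoepithelial minus luminal, SE 0.61). It was singled out because the test of the difference between them, gland minus duct, passed: -3.30 (SE 0.87, limma adjusted p 0.032). That made 1 of 10 members, where 16% of all genes passed, and the call held in 12 of 19 alternatives. The basal duct arrays read 3114 and 7993 against 1974 and 1227 in the suprabasal arrays, and the myoepithelial arrays 2414 and 846 against 7111 and 2787.5 in the luminal arrays, so neither pair of layers overlapped. Neither layer difference alone was past the threshold. The cause was not tested.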

How the results depend on the processing

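Counts of members past the threshold held within 1.5 times in the comparisons with epidermis and the F test under all alternatives. When single arrays were left out they ranged from 7 to 9 in duct basal, 5 to 8 in duct suprabasal, 6 to 8 in myoepithelial and 8 to 10 in luminal cells, and 7 to 10 in the F test. In the main fit 34%, 46%, 51.6% and 45.3% of all genes were past the threshold against epidermis in either direction, and 65.8% in the F test. Against duct suprabasal cells these shares were 16.4% for duct basal, 17.4% for myoepithelial and 15.2% for luminal cells. They were 35.4% for luminal against duct basal, 31.1% for myoepithelial against luminal and 24.3% for myoepithelial against duct basal cells. Among the sweat populations the counts of members are small. Without single arrays they ranged from 0 to 1 for duct basal against duct suprabasal and luminal against duct basal cells, and from 0 to 2 for luminal against duct suprabasal cells and for myoepithelial cells against the other 3 populations. A lone array was assumed to vary like the other groups. Duct basal against duct suprabasal cells fell to 0 under quantile normalization, without the trend in the prior variance, in a fit of only the 4 arrays, and without myoepithelial array 1 and duct suprabasal array 2. Myoepithelial against duct suprabasal cells gave 0 under quantile normalization, without the trend and without those 2 arrays, and 1 without the filter and with only the 4 arrays. Luminal against duct suprabasal cells gave 0 without the trend and with only the 4 arrays. Luminal against duct basal cells gave 1 with the pseudocount of 47 (3338 of 9310 genes passed) and with a filter at the 60th percentile (3104 of 7202). It also gave 1 with only the 4 arrays. Myoepithelial against luminal cells gave 1 with the stricter filter, where 2697 of 7202 genes passed, and 1 with only the 4 arrays. Myoepithelial against duct basal cells gave 2 with only the 4 arrays. With the replicate block, luminal against duct suprabasal cells gave 2, Ier2 and Zfp36, where 1882 of 9310 genes passed. The counts against epidermis were 9, 8, 8 and 10, where 3587, 4707, 5150 and 4607 genes passed in either direction. The F test gave 10, where 6574 genes passed. Of the single differences from epidermis, 753 kept their side of the threshold, 34 lost it and 13 gained it; no called difference of a member changed sign. The cause of these changes was not tested. With 2 arrays per population, and no detection calls for the low epidermis signals of Fosb and Nr4a1, the sizes of those differences are the least certain.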
